A study of Mus musculus with 20 samples.

Results

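The osteoclast program was followed here through the cultures, tumors and chromatin maps of a study of macrophages made from B cells in mice with breast cancer. It consists here of 8 genes, Acp5, Ctsk, Itgb3, Dcstamp, Ocstamp, Nfatc1, Tnfrsf11a and Calcr, which were chosen by name, with earlier results of these data known. Of the 8 genes, 7 had a row in at least 1 of the single-cell RNA tables, 6 in the culture table and 7 in the tumor table, out of 15855 and 15333 genes listed there and 16790 in either. Calcr in both tables and Ocstamp in the cultures were not analysed here.

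Osteoclasts are the cells that dissolve bone. They form from monocytes and macrophages when RANKL, a cytokine of the TNF family, binds its receptor RANK, the product of Tnfrsf11a, and the signal switches on the transcription factor NFATc1, encoded by Nfatc1. NFATc1 then drives the membrane proteins that fuse the precursors into giant cells, DC-STAMP and OC-STAMP (Dcstamp and Ocstamp), and the tools of the mature cell. These are tartrate-resistant acid phosphatase (Acp5), the collagen-degrading protease cathepsin K (Ctsk), the beta3 integrin chain that anchors the cell to bone (Itgb3) and the calcitonin receptor (Calcr). None of these genes belongs to osteoclasts alone. Acp5 is made by many tissue macrophages, Ctsk by fibroblasts, Itgb3 by platelets and several lymphoid and stromal cells, and Nfatc1 by activated T and B cells.

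Cultures of 2 kinds and a set of tumors were read by droplet single-cell RNA sequencing. B-MF were macrophages obtained from bone marrow (BM) B cells and Mo-MF were macrophages obtained from monocytes, both grown in conditioned medium of the 4T1.2 mouse breast cancer line (4T1.2-CM), with 2 libraries each. TAM were cells isolated as macrophages from the tumors of mice with 4T1.2 cancer, in 4 libraries that are called TAM libraries 2 to 5 here after their column names. Chromatin that the Tn5 enzyme can enter was mapped by ATAC-seq in 12 further libraries. From BM and from spleen alike, 3 were CSF1R+ and 3 CSF1R-. The labels call these cells macrophages and the study's methods B-cell precursors of mice without cancer. The labels give no genotype, strain, sex or age for any library. They do not say that the replicate cultures came from separate animals either, so the spread between these libraries may be technical. The p-values of the main fit of B-MF against Mo-MF do not measure that spread, as explained with the results.

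The culture libraries held 4846 to 5389 cells with medians of 18350 to 19469 corrected counts per cell, and the tumor libraries 2318 to 3180 cells with medians of 7651 to 8266. The 2 tables were normalized separately, so cultures and tumors are set side by side with no test. Counting error only is covered by the intervals given. Cell barcodes that occurred in more than 1 library numbered 45 in the cultures and 13 in the tumors, none of them in the cells with high Ctsk described further on. Cells were clustered without the 8 genes, and clusters were named from marker lists, so that a name here may differ from that of the study. Against the label, 5471 of the 10885 cells isolated as tumor macrophages fell into neutrophil-like clusters and 4274 into macrophage-like or monocyte-like ones. Neutrophil-like clusters of the cultures were almost all Mo-MF: without them 5234 of 5237 and 5326 of 5326 B-MF cells were left, but 4345 of 4846 and 4870 of 5389 Mo-MF cells.

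The stretches just upstream of Acp5, Ctsk and Tnfrsf11a are shown because they differ in whether the chromatin of B-cell precursors was open there. Each is the 250 bases before a start site listed by RefSeq on GRCm38.p6, written 5′ to 3′ on the strand of the gene, with the NFAT core GGAAA in capitals wherever a search of both strands found it. Acp5 lies on the minus strand of chromosome 9 and is shown before its outermost start (chr9:22135747-22135996) and before a start inside the gene (chr9:22131866-22132115). The Ctsk window is chr3:95498960-95499209 on the plus strand, and that of Tnfrsf11a chr1:105780473-105780722 on the plus strand, with its last 5 bases in an exon of the GENCODE annotation.
Acp5, outermost start: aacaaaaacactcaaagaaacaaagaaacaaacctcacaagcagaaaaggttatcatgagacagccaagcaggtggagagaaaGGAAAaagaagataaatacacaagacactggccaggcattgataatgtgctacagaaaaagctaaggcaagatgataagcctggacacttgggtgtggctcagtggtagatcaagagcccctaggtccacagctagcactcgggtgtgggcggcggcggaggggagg
Acp5, internal start: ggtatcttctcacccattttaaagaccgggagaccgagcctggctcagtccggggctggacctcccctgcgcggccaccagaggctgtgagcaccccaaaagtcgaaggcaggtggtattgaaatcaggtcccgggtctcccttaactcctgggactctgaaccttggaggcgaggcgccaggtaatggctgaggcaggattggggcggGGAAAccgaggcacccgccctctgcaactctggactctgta
Ctsk: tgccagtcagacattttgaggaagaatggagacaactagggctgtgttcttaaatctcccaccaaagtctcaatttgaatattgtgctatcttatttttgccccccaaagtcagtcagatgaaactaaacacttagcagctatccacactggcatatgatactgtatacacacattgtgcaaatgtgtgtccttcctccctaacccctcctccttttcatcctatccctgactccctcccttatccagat
Tnfrsf11a: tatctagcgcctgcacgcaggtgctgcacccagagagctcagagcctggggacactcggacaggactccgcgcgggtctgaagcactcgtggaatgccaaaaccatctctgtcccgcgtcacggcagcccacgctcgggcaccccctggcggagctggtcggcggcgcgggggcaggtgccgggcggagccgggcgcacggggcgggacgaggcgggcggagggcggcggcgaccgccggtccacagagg
No ATAC-seq library had a peak over the outermost Acp5 window or the Ctsk window, whereas all 12 had a peak over the internal Acp5 window and 11 of 12 over the Tnfrsf11a window. GGAAA occurred once in each of the 2 Acp5 windows shown, 167 and 41 bases before the start, and not in the Ctsk and Tnfrsf11a windows, but it is a short word that 55.6% of 32851 RefSeq promoters of the same length hold. Of the other motifs searched on both strands, the AP-1 word TGACTCA, the PU.1 word GAGGAAGT, the E-box CACGTG and the M-box CATGTG, none was found in these 4 windows (4.46%, 2.44%, 6.02% and 12.3% of promoters held them). RefSeq lists a further start inside Acp5, whose window (chr9:22130599-22130848, not shown) had no peak in any library and held GGAAA 117 and 37 bases and the M-box 90 bases before the start. A match describes letters only and is not a binding site.

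In the cultures, Acp5 had the largest difference of the 4 members that could be tested between B-MF and Mo-MF. Of the B-MF cells 14.2% (exact 95% binomial interval, 13.2 to 15.1) and 12.3% (11.4 to 13.2) had at least 1 corrected count of Acp5, and of the Mo-MF cells 44.4% (43.0 to 45.8) and 42.7% (41.3 to 44.0). Mean counts per cell were 0.186 and 0.167 in B-MF, against 1.25 and 1.16 in Mo-MF. Both Mo-MF libraries lay above both B-MF libraries, and the B-MF level was 0.147 of that of Mo-MF. On the scale of log2(mean + 0.1), where differences between low values are shrunken, Acp5 was 2.23 lower in B-MF (log2 difference −2.23, SE 0.0725, adjusted p = 1.74e-201, limma). Ctsk, the cathepsin, went the same way. B-MF cells were positive in 6.65% (5.99 to 7.35) and 5.75% (5.14 to 6.4) and Mo-MF cells in 18.3% (17.2 to 19.4) and 16.8% (15.8 to 17.9), with mean counts of 0.0936 and 0.108 against 0.295 and 0.323. The groups did not overlap for either gene, a split not counted over all genes. For Ctsk the log2 difference was −1.03 (SE 0.0968, adjusted p = 3.02e-25, limma). In that fit limma let the trend across all genes replace the spread of the 4 libraries, which makes p-values extreme. Without the trend the adjusted p was 1.01e-07 for Acp5 and 5.64e-06 for Ctsk.

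The receptor that starts the program was higher in B-MF. Tnfrsf11a was positive in 44.2% and 40.4% of B-MF and in 35.8% and 36.5% of Mo-MF, with mean counts of 0.656 and 0.617 against 0.508 and 0.514. The difference was small beside that of Acp5, 1.25-fold on the ratio of means (log2 difference 0.27, SE 0.0661, adjusted p = 0.000167 with limma, 0.00463 without the trend). It was no longer called without either Mo-MF library (adjusted p = 0.147 without replicate 1 and 0.121 without replicate 2). Nfatc1 was positive in 29.1% and 25% of B-MF and 30.4% and 29.4% of Mo-MF, and its difference did not pass the test (log2 difference −0.13, SE 0.0870, adjusted p = 0.254, limma). Itgb3 stood at 0.611% and 0.882% of B-MF and 4.44% and 5.23% of Mo-MF, under the mean of 0.1 counts needed for the test. With the filter lowered to 0.01 its log2 difference was −0.95, and its mean in B-MF was 0.0994 of that in Mo-MF. The B-MF libraries held 0.00936 and 0.0137 counts per cell, near the lowered filter and the first under it. The Itgb3 values are therefore a description and carry no test.

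Dcstamp, which precursors need to fuse, was detected in B-MF cultures in 19 of 5237 and 20 of 5326 cells (0.363% and 0.376%). It was found in 0 of 4846 and 0 of 5389 Mo-MF cells, which allows up to 0.0619% and 0.0557% of cells with a count, a limit on detection and not on expression. Of the 39 positive cells, 28 lay in 1 B-MF cluster of 4182 cells, led by Cdkn2a, St3gal5 and Myc. That cluster held 2001 of the 5237 and 2172 of the 5326 B-MF cells. Its cells had a median of 4053.5 detected genes, against 3299 in the B-MF cluster led by Egr1. The part of size and depth in this count was not tested. The gene was too low to be tested.

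Across the cultures 44.6% of the 8633 genes tested were called, 26.5% higher and 18.1% lower in B-MF, with a median difference of 0.02. Of the 4 members tested, 1 was higher, 2 were lower and 1 was not called, with a median of −0.58, a share called that can be read only against that high background. With library means scaled by median ratios, the split of all calls moved from 2292 higher and 1561 lower to 2420 higher and 2507 lower, and Nfatc1 was then called lower in B-MF (adjusted p = 1.44e-05, limma).

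**Figure D1:**
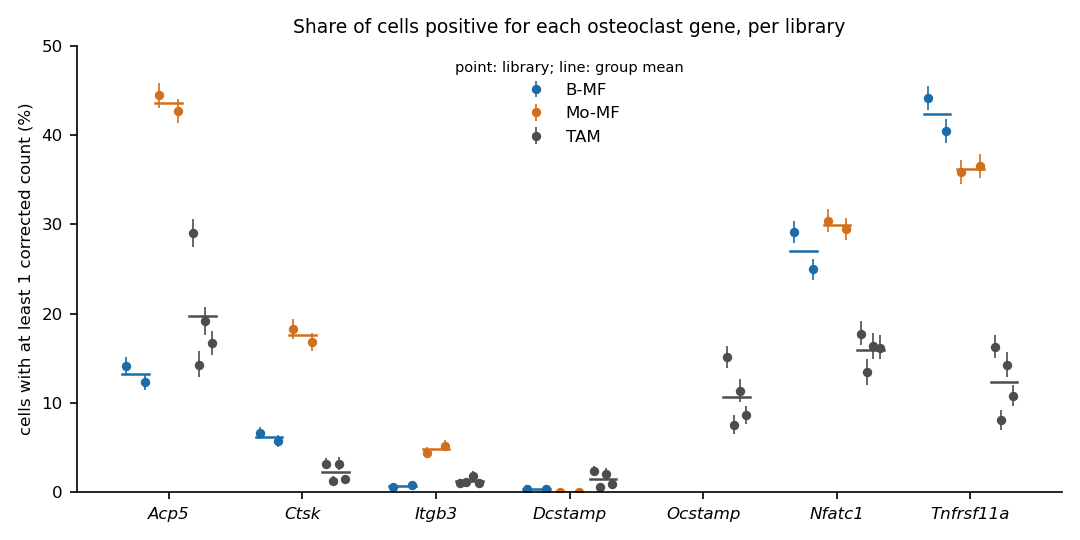
Percent of cells with at least 1 corrected count of each gene (y axis) in every B-MF, Mo-MF and TAM library, points with exact 95% binomial intervals and lines at the group means. Both Mo-MF libraries lie above both B-MF libraries for Acp5, Ctsk, Itgb3 and Nfatc1 and below them for Tnfrsf11a and Dcstamp. This split was not counted over all genes, and TAM libraries range from 14.3% to 29.0% for Acp5.

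Within Mo-MF, Acp5 and Ctsk were most frequent in 1 cluster, while Itgb3 was not. This cluster held 4694 cells, 4679 of them Mo-MF, was led by Bex1, Arg1, Fn1 and Mfge8, and met the osteoclast list, which is made of the members. It was left unnamed because a monocyte marker, Fn1, was among its leading genes. It was positive for Acp5 in 65.6% of cells, for Ctsk in 25.6%, for Itgb3 in 5.16%, for Nfatc1 in 33.2% and for Tnfrsf11a in 39.5%. The Ly6a-led Mo-MF cluster stood at 20.7% for Acp5 and 10.4% for Ctsk but at 6.10% for Itgb3 and 52.0% for Tnfrsf11a. The highest Itgb3 share, 31.8%, was that of a cluster of 44 cells led by Igkc, Prss34 and Igha, with 5 cells in each B-MF library and 21 and 13 in the Mo-MF libraries. It met the basophil/mast list and the B list as well, and is called basophil/mast-like. The name is loose, since the markers Mcpt8, Cpa3 and Fcer1a were at 0 in all B-MF cells. The B-MF clusters led by Egr1 and by Cdkn2a gave 10.4% and 17.8% for Acp5, 3.73% and 8.61% for Ctsk, and 35.4% and 52.2% for Tnfrsf11a. A low share of these transcripts could come from free RNA, which was not estimated. For the Mo-MF libraries, 2 neutrophil-like clusters of 401 and 122 cells, almost all Mo-MF, are set beside the shares of Acp5, Ctsk and Tnfrsf11a. They were positive for Acp5 in 1.25% and 1.64%, for Ctsk in 0.499% and 1.64% and for Tnfrsf11a in 1.5% and 0% of cells, at medians of 15550 and 16430 corrected counts. Nfatc1 was positive in 13.7% and 24.6% of them, against 25% to 30.4% in the B-MF and Mo-MF libraries. Whether such cells made Nfatc1 themselves was not tested. They are therefore no scale for free Nfatc1 RNA, and no Nfatc1 expression above them is read either. Itgb3 was positive in 0.249% and 1.64% of the cells of these 2 clusters, a range that holds both B-MF shares. As the clusters come almost only from Mo-MF libraries, they give no scale for free RNA in B-MF. Itgb3 expression in B-MF above free RNA was not tested, and none is read. The third neutrophil-like cluster, of 500 cells led by Ngp and Camp, was left out of this after its values were seen. It was positive for Acp5 in 42.2%, for Ctsk in 17.6% and for Tnfrsf11a in 33.8% of cells. It met the macrophage, monocyte and osteoclast lists as well. Since the 2 clusters kept were chosen with their values known, they give no scale for free Acp5, Ctsk and Tnfrsf11a RNA in Mo-MF either.

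Co-expression in the cultures was weak. Acp5 and Ctsk were found in the same cell 60 and 47 times in B-MF, 1.22 and 1.25 times the number expected from their single shares, and 542 and 549 times in Mo-MF, 1.38 and 1.42 times that number. Inside the Bex1 cluster the ratio fell to 1.08 and 1.11. At least 3 of the 6 genes were detected in 4.24% and 3.15% of B-MF and in 14.3% and 13.0% of Mo-MF. At least 5 were found in 0 and 1 B-MF cells and 5 and 9 Mo-MF cells, and all 6 in none.

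The other genes of the pathway split evenly. Of 51 receptors, transcription factors, inhibitors, fusion proteins and matrix-removing genes, 44 were tested and 39 reached a mean of 0.1 counts in both cultures, of which 17 were higher and 18 lower in B-MF, with a median of −0.11. Over all genes that did so, 8292, the calls were 26.6% higher and 16.9% lower. By group, genes of acid secretion and matrix removal were called lower in 7 of 10 (Mmp9, Ctsl, Tcirg1, Clcn7, Snx10, Plekhm1, Atp6v1c1) and higher in 1 (Ckb), with a median of −0.32, and fusion and adhesion genes lower in 4 of 7 and higher in 3 (Cd9, Cd44, Cd81) with a median of −0.11. Transcription factors were higher in 7 of 11 and lower in 3 (Spi1, Mitf, Jdp2), with a median of 0.18, and receptors and adaptors higher in 4 of 6 and lower in 1 (Pira2), with a median of 0.29. Brakes on osteoclast formation were higher in 2 of 5 (Id2, Nfkbia) and lower in 3, among them Bcl6 and Irf8 (median −0.21). The brakes Id1 and Id3 reached the filter in B-MF alone and carry no test. With them the median over the 7 brakes was 0.31, the other sign, so no direction is read for this group.

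Id3, an inhibitor of helix-loop-helix factors, was at 2.65 and 2.25 counts per cell in B-MF, against 0.0431 and 0.0494 in Mo-MF (log2 difference 4.12). Cd81, a tetraspanin, was at 1.92 and 1.69 against 0.470 and 0.452 (1.76). Myc was at 0.414 and 0.399 against 0.0700 and 0.0731 (1.56), and Fos, which partners NFATc1 at AP-1 sites, at 18.9 and 18.5 against 8.11 and 7.77 (1.23). All 4 were higher in both B-MF libraries than in either Mo-MF library, a split not counted over all genes. It adds no support, since the genes were named for the size of their differences. In the other direction, the membrane protease Mmp14 was at 0.0342 and 0.0304 against 0.864 and 0.851 (−2.86). The kinase Src, which builds the sealing zone, was at 0.0258 and 0.0240 against 0.206 and 0.210 (−1.30), and the protease Ctsl at 128 and 126 against 302 and 309 (−1.27). Id3, Myc, Mmp14 and Src reached the filter in the higher culture alone and carry no test, and adjusted p-values of Cd81, Fos and Ctsl without the trend were at most 8.47e-07 (limma). The gelatinase Mmp9 was at 0.332 and 0.279 against 1.09 and 0.972 (−1.48), but its difference shrank to −0.21 when neutrophil-like cells were left out (adjusted p = 0.0462, and 0.0505 without fibroblast-like and basophil/mast-like cells as well, limma). Summed neutrophil markers were 1.06 and 0.724 counts per cell in B-MF, against 146 and 117 in Mo-MF, monocyte markers 0.627 and 0.625 against 5.76 and 5.79, and fibroblast markers 0.157 and 0.139 against 0 and 0.0210. Macrophage markers were lower in B-MF as well, at 293 and 282 against 599.98 and 590.4, and megakaryocyte markers higher, at 144 and 140.03 against 32.4 and 29.7. B-cell markers were 0.462 and 0.440 against 0.158 and 0.135, endothelial markers 0.182 and 0.161 against 0.374 and 0.375, and proliferation markers 2.09 and 1.75 against 1.59 and 1.66. Osteoblast and basophil/mast markers were higher in Mo-MF but at most 0.297, T/NK and dendritic markers at most 0.0514 in any library, and epithelial markers at 0. Without the neutrophil-like cells Acp5 and Ctsk were still called lower and Tnfrsf11a higher (log2 difference 0.20, adjusted p = 0.00617, limma). The part of the other markers in the differences was not tested.

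In the tumors, the members were present at shares that differed from gene to gene widely. Acp5 was found in 29.0%, 14.3%, 19.1% and 16.7% of the cells of TAM libraries 2 to 5. Nfatc1 was found in 17.8%, 13.4%, 16.3% and 16.2%, and Tnfrsf11a in 16.3%, 8.07%, 14.3% and 10.8%. Library 2 was highest and library 3 lowest for each of these 3 genes. The share of neutrophil-like cells ran the other way, lowest in library 2 and highest in library 3, and its part was not tested. Ocstamp was found in 15.1%, 7.55%, 11.4% and 8.63% of cells. Ctsk was far rarer, at 3.14%, 1.25%, 3.14% and 1.5%, as were Dcstamp at 2.36%, 0.647%, 2.05% and 0.9% and Itgb3 at 1.04%, 1.12%, 1.80% and 1.07%. Since cultured cells held more counts than tumor cells, shares were also taken after each cell was thinned to 5000 corrected counts, for which no cell of either table was too shallow. Mean shares of Acp5 were then 4.20% in B-MF, 20.9% in Mo-MF and 15.3% in TAM, those of Tnfrsf11a 14.8%, 12% and 8.03%, and those of Dcstamp 0.132%, 0% and 1.13%. For Nfatc1 the order turned, since TAM was lowest before thinning (27.0% in B-MF, 29.9% in Mo-MF and 15.9% in TAM) and highest after it (8.40%, 9.33% and 11%). All TAM shares here are over all cells, and these genes were rarer in neutrophil-like than in macrophage-like and monocyte-like cells, as given below. The part of the neutrophil-like cells in the order of cultures and tumors was not tested.

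Nearly all Ctsk RNA of the tumors sat in a small number of cells. The 67 cells with at least 10 Ctsk counts, called Ctsk-high here, were 0.616% of the 10885 cells and held 96.4% of all Ctsk counts. They came from all 4 libraries, 26, 7, 22 and 12 from libraries 2 to 5. Just inside the limit lay 2 cells with 11 counts, 1 with 14 and 1 with 15, and just outside it 1 cell with 8, 3 with 7 and 1 with 6. The same cells held 54.4% of Acp5 and 45.9% of Dcstamp counts, but only 16.4% of Ocstamp, 16.0% of Nfatc1, 11.9% of Itgb3 and 6.80% of Tnfrsf11a counts.

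Of the Ctsk-high cells, 62 belonged to a cluster of 78 cells that had been found without the 8 genes. Its leading genes included Mt3, Atp6v0d2, Slc9b2, Bdh2, Mmp9, Nrp2 and Lpl, and it alone among the 18 tumor clusters was named osteoclast-like, by the members themselves. Atp6v0d2 is a proton pump subunit needed for fusion, Slc9b2 a sodium-proton exchanger and Mmp9 a gelatinase, all well known from osteoclasts. The cluster made up 0.912%, 0.518%, 0.964% and 0.467% of libraries 2 to 5, and 0.717% (exact 95% interval, 0.567 to 0.894) of all cells. Acp5 was positive in 98.7% of its cells, Nfatc1 in 91.0%, Tnfrsf11a in 91.0%, Ctsk in 88.5%, Ocstamp in 80.8%, Dcstamp in 67.9% and Itgb3 in 16.7%. The other 5 Ctsk-high cells were different. Of these, 4 were fibroblast-like cells of library 4 with up to 16 Ctsk counts and no Acp5, and 1 was a B-like cell of library 5 with 48 Ctsk and 28 Acp5 counts.

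**Figure D2:**
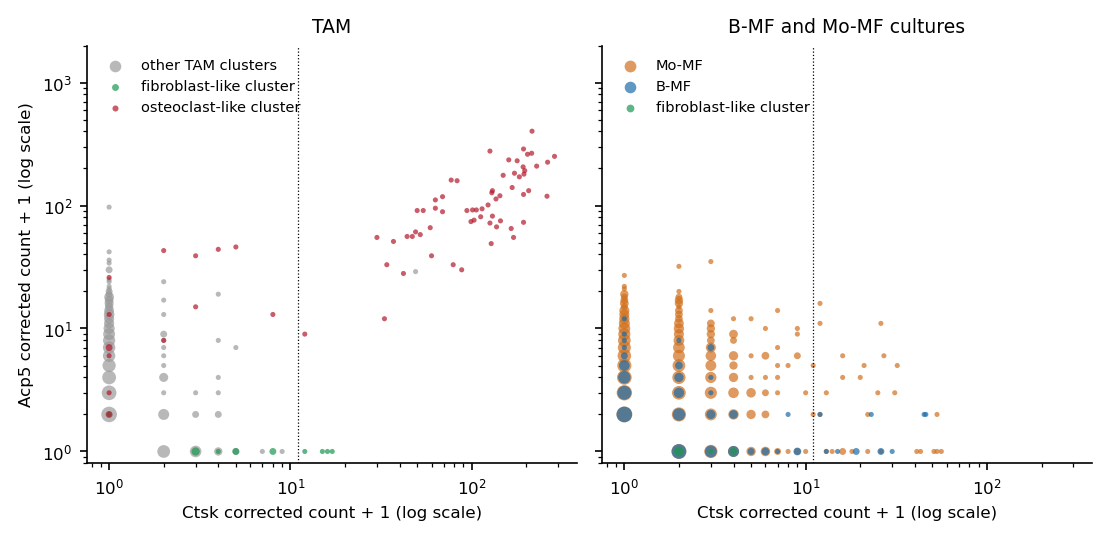
Corrected counts of Ctsk plus 1 (x axis, log scale) against those of Acp5 plus 1 (y axis, log scale) in each cell, larger points standing for more cells, for TAM and for the cultures, with the dotted line at 10 Ctsk counts. Osteoclast-like tumor cells sit apart at high values of both genes, up to 285 Ctsk and 401 Acp5 counts, and cultured cells reach at most 55 Ctsk counts.

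The 62 cells with 20 or more Ctsk counts carried most of the program together. Ctsk there ran from 29 to 285 counts (median 125) and Acp5 from 11 to 401 (median 92), so that Acp5 was positive in 100% of them. Nfatc1 was positive in 93.5%, Ocstamp in 93.5%, Tnfrsf11a in 91.9% and Dcstamp in 83.9%, against 15.5%, 10.4%, 12% and 1.06% of the 10636 cells with no Ctsk count. Itgb3 was positive in 21% against 1.07%. Median corrected counts were 8529 and 7942 per cell in these bins. The 5 cells with 10 to 19 counts are no step on this scale, since 4 were fibroblast-like without Acp5, 1 of them with Itgb3, and the other, osteoclast-like, had 11 Ctsk, 8 Acp5, 2 Ocstamp, 12 Nfatc1 and 3 Tnfrsf11a counts. Among the 182 cells with 1 to 9 Ctsk counts, Dcstamp was at 0.549%, Ocstamp at 12.6%, Acp5 at 29.7%, Nfatc1 at 23.1% and Tnfrsf11a at 19.2%.

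**Figure D3:**
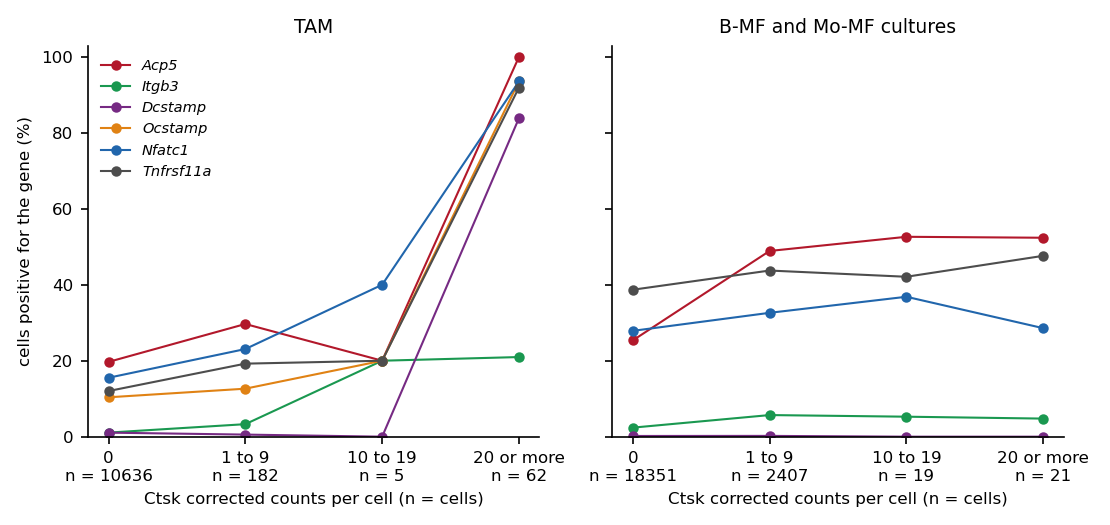
Percent of cells positive for each of the other members (y axis) in bins of 0, 1 to 9, 10 to 19 and 20 or more Ctsk counts (x axis), in TAM (10636, 182, 5 and 62 cells) and in the cultures (18351, 2407, 19 and 21 cells). In TAM the shares of Acp5, Dcstamp, Ocstamp and Tnfrsf11a rise steeply only in the last bin, where Acp5 reaches 100%, while Itgb3 is at 20% and 21% in the last 2 bins and Nfatc1 at 40% in the third, where 4 of the 5 cells are fibroblast-like.

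Ctsk-high cells were compared with macrophage-like and monocyte-like cells without Ctsk over libraries, with the library as a block and libraries 2, 4 and 5, since library 3 had only 7 Ctsk-high cells. Of all 6502 genes tested 50.5% were called, 22.5% higher and 28% lower. Genes below the filter in one of the cell sets enter such a test only through the other, where they are high, so counts are given over the 4748 genes that reached a mean of 0.1 in both sets, of which 44.8% were called (24.4% higher and 20.3% lower). Acp5, Ocstamp, Nfatc1 and Tnfrsf11a were among them, and all 4 rose, with a median difference of 3.95 on the log2(mean + 0.1) scale against 0.019 over the 4748 genes. Dcstamp and Itgb3 reached the filter through the Ctsk-high cells alone, and their values are a description.

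Acp5 rose most, from means of 1.36, 1.08 and 0.818 counts per cell in libraries 2, 4 and 5 to 136.7, 91.2 and 85.8 (log2 difference 6.46, SE 0.0958, adjusted p = 3.69e-06, limma). In library 3 the Ctsk-high mean was 125. Of the fusion genes, Dcstamp went from 0.0215, 0.0364 and 0.0162 to 3.08, 2.23 and 2.42 (4.41), and Ocstamp from 0.292, 0.298 and 0.272 to 6, 5.27 and 3.42 (3.65, SE 0.188, adjusted p = 8.55e-05, limma). With the filter lowered to 0.01, which Dcstamp reached in both sets, its adjusted p was 0.000690 (limma). The sets lay apart in every library for all 3 genes, and how many of all genes did so was not counted.

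Nfatc1 rose from 0.285, 0.255 and 0.237 to 5.81, 7.86 and 6.50 (4.24, SE 0.166, adjusted p = 5.15e-05, limma). Its upstream receptor gene Tnfrsf11a rose less, from 0.284, 0.314 and 0.278 to 1.69, 1.77 and 1.83 (2.25, SE 0.163, adjusted p = 0.000212, limma). Itgb3 stood at 0.00444, 0.00662 and 0.00607 against 0.50, 0.36 and 0.083 in the Ctsk-high cells (1.81), and was positive in 7, 2, 4 and 1 of the Ctsk-high cells of libraries 2 to 5.

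Beyond the members, genes of matrix removal were mostly higher and the brakes lower in Ctsk-high cells, counted over the 38 of 48 tested pathway genes that reached the filter in both sets. Of 11 acid and matrix genes, 7 rose (Ckb, Clcn7, Tcirg1, Snx10, Atp6v1c1, Mmp9, Mmp14) and 2 fell (Ctsb, Ctsl), with a median of 1.85. All 5 brakes fell, among them Id2, Id3, Irf8 and Nfkbia, with a median of −2.26. The other groups were mixed. Receptors and adaptors rose in 2 of 5 (Csf1r, Trem2) and fell in 2 (median −0.41), transcription factors rose in 6 of 11 and fell in 4 (median 0.56), and fusion and adhesion genes rose in 1 of 6 and fell in 2 (median −0.34). In all, 16 of 38 pathway genes rose and 15 fell.

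Atp6v0d2 was at 11, 8.18 and 7.58 counts per cell in the Ctsk-high cells of libraries 2, 4 and 5 and at 0.0380, 0.0419 and 0.0162 in the cells without Ctsk (log2 difference 6.08). Mmp9 was at 71.3, 47.4 and 37.7 against 0.925, 0.615 and 0.623 (5.96, adjusted p = 1.15e-05, limma). Car2, the carbonic anhydrase that supplies protons, was at 2.81, 2.91 and 1.42 against 0.0127, 0.0154 and 0.0121 (4.38). Src was at 0.923, 1.36 and 1.42 against 0.0139, 0.0121 and 0.0111 (3.55). All 4 thus stood higher in each library, a split not counted over all genes, which adds nothing for genes named by the size of their differences. Only Mmp9 reached the filter in both sets, and the other 3 carry no test.

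Of the genes that fell, Irf8, a monocyte factor that restrains NFATc1, was at 0.308, 0.136 and 0.0833 against 2.35, 2.11 and 2.37 (−3.19, adjusted p = 0.000267, limma). The immunoglobulin-like receptor Pira2 was at 0.154, 0 and 0.0833 against 1.16, 1.81 and 1.64 (−3.27, with no test, since it reached the filter in the cells without Ctsk alone), and the hyaluronan receptor Cd44 at 1.81, 1.05 and 0.833 against 6.94, 7.18 and 7.36 (−2.52, adjusted p = 0.000368, limma). None of these 3 genes overlapped between the cell sets, and the share of all genes that did not was not counted. As the genes were named for the size of their differences, this adds no support.

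Markers of other cells moved with this contrast too. Summed monocyte markers were 0, 0, 7.09 and 0.417 counts per cell in the Ctsk-high cells of libraries 2 to 5 and 25.2 to 31.7 in the cells without Ctsk, and neutrophil markers 0.346, 7.86, 1.05 and 2.67 against 86.5 to 165. Macrophage markers were 17.9 to 32.6 against 29.1 to 49.7, with Adgre1, which encodes F4/80, at 0 in the Ctsk-high cells of all 4 libraries. Fibroblast markers were at 53.8 in library 4 and at 0 in the other 3, and B-cell markers at 0, 0, 0.182 and 1.92. Dendritic, T/NK, epithelial, osteoblast and megakaryocyte markers summed to at most 0.417 in any library, and basophil/mast and endothelial markers to 0. Proliferation markers were 1.5, 0.857, 0.273 and 3.75 against 0.717, 1.47, 0.868 and 0.805, higher in libraries 2 and 5 and lower in libraries 3 and 4. The part of these cells in the differences was not tested. Without the fibroblast-like and B-like cells 3625 genes were called in place of 3281, and Acp5, Ocstamp, Nfatc1 and Tnfrsf11a were still called higher.

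In the osteoclast-like cluster 16 cells had fewer than 10 Ctsk counts, 3, 5, 5 and 3 in libraries 2 to 5, and these carried only part of the program. Acp5 was positive in 15 (median 9.5 counts), Tnfrsf11a in 14 (median 2.5) and Nfatc1 in 13 (median 4). Only 7 had any Ctsk, 5 Ocstamp, 1 Dcstamp and 0 Itgb3. A cell of library 4 had 25 Acp5, 10 Nfatc1 and 2 Tnfrsf11a counts but none of Ctsk, Dcstamp or Ocstamp, and a cell of library 2 had 45 Acp5, 4 Ctsk, 2 Dcstamp, 4 Ocstamp, 4 Nfatc1 and 3 Tnfrsf11a counts. As cluster members were counted here by a limit on Ctsk, their low Ctsk is part of how they were picked.

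Outside this cluster the members differed in the clusters where they were most frequent, with some overlap. Acp5 was most frequent in the C1qc-led macrophage-like cluster, at 73.0%, 64.1%, 79.8% and 72.9% of its cells in libraries 2 to 5. The Arg1- and Pf4-led macrophage-like cluster followed with 43.4%, 49.2%, 45.3% and 42.1%. High Acp5 was nevertheless rare there, since 65 cells with 20 or more counts were osteoclast-like and 12 cells were in other clusters. Ocstamp was most frequent in the dendritic-like cluster led by Timd4 and H2-Eb1, at 42.2%, 46.0%, 38.2% and 51.2%, and next in the Sdc1-led monocyte-like cluster, at 22.9%, 24.9%, 29.1% and 23.5%. The Timd4 cluster also had the highest share of Dcstamp outside the osteoclast-like cells, 8.78%, 6%, 12.5% and 6.4%, and met the macrophage and monocyte lists too. Acp5 was positive in 40.2% of the Timd4 cluster and Tnfrsf11a in 31.2%, so that several members were frequent there.

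Tnfrsf11a was most frequent outside the osteoclast-like cells in the dendritic-like cluster led by Fscn1 and Ccr7, at 60.7%, 62.5%, 54.5% and 65.5%. Monocyte-like clusters held 42.9% of all its counts. Nfatc1 reached 53.8% in T/NK-like cells and 50.5% and 35.5% in the B-like clusters, against 7.41% to 25.1% in macrophage-like and monocyte-like clusters. Itgb3 was mainly a lymphoid transcript in these tumors, with 42.1% of its counts in B-like and 16.8% in T/NK-like cells, and 0% to 0.811% of cells positive in macrophage-like and monocyte-like clusters. Ctsk was positive in 13 of 19 fibroblast-like cells (68.4%) and in 7.3% of the Arg1 cluster, against 0% to 1.65% of the other macrophage-like and monocyte-like clusters.

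Free RNA was not estimated in the tumors either. The neutrophil-like cells, whose own transcripts were not told apart from it, are set beside the other cells here. Over 5471 of them, with a median of 7500 corrected counts, Acp5 was positive in 6.82%, Nfatc1 in 8.63%, Ocstamp in 1.08%, Tnfrsf11a in 1.08%, Ctsk in 0.95%, Itgb3 in 0.274% and Dcstamp in 0.0366%. Over the 4274 macrophage-like and monocyte-like cells, with a median of 8528, the shares were 33.3%, 20.8%, 18.5%, 23.0%, 2.48%, 0.562% and 1.26% in the same order. The Ctsk shares of at most 1.65% in the macrophage-like and monocyte-like clusters other than the Arg1 cluster lay near that of the neutrophil-like cells, and no expression is read from them.

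**Figure D4:**
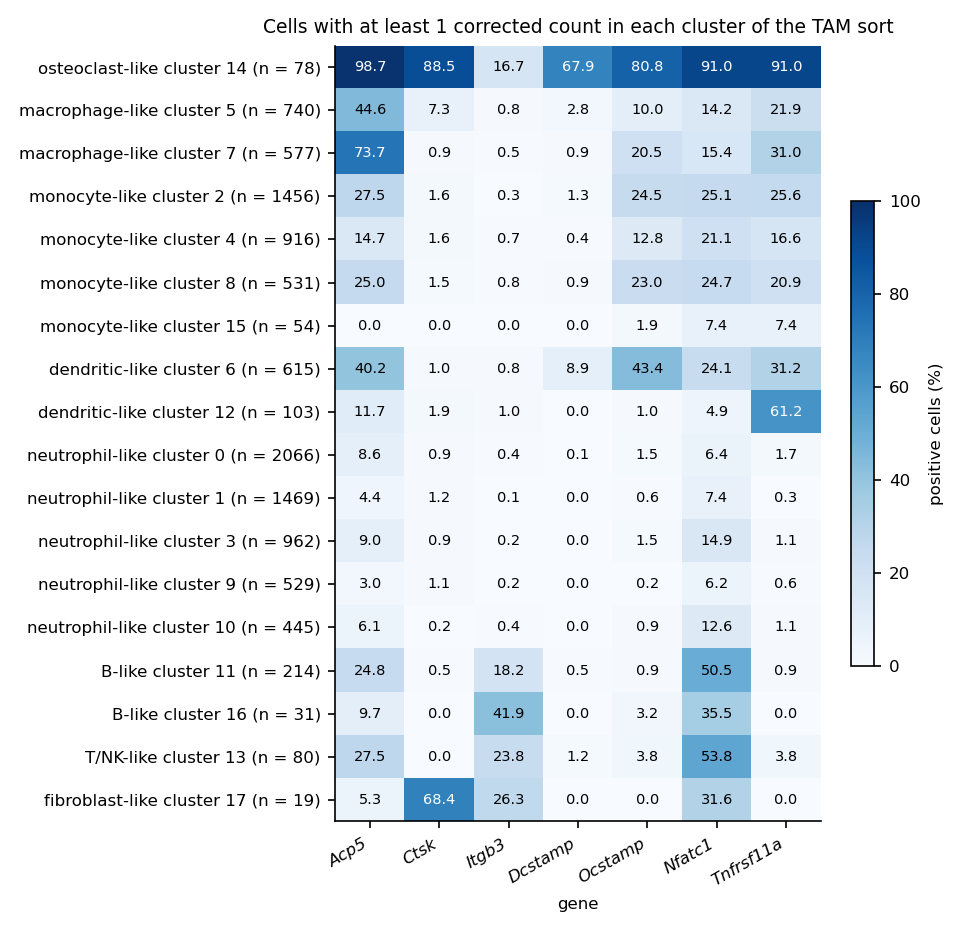
Percent of cells positive for each of 7 members (columns, color scale) in the 18 TAM clusters (rows, with the number of cells). The osteoclast-like cluster of 78 cells is high for all members but Itgb3 (16.7%), and no other cluster is high for Ctsk and Acp5 alike, the C1qc-led cluster having Acp5 at 73.7% and Ctsk at 0.867%.

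Below the Ctsk-high range, no difference in the other members was called between cells with a little Ctsk and cells with none. The 106 macrophage-like and monocyte-like cells with 1 to 9 Ctsk counts (51, 14, 28 and 13 in libraries 2 to 5) were compared with cells of the same clusters without Ctsk. Of 6603 genes tested, 1.47% were called (0.803% higher and 0.666% lower), and of the 4 members tested none, nor did any pass at an unadjusted p under 0.05 in limma. Acp5 was at 1.43, 2.57, 1.11 and 0.308 counts per cell against 1.36, 0.882, 1.08 and 0.818, higher in 3 of 4 libraries (log2 difference 0.09, SE 0.291, adjusted p = 0.927, limma), and its difference was −0.36 without library 3. The differences were −0.47 for Ocstamp (adjusted p = 0.369), −0.39 for Nfatc1 (0.624) and −0.29 for Tnfrsf11a (0.674). Dcstamp was at 0 in the Ctsk-low cells of all 4 libraries. Of these cells 83 (78.3%) had exactly 1 Ctsk count.

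The 2 pathway genes called in this contrast were also cathepsins. Ctsl was at 28.8, 40.4, 26.4 and 18.5 counts per cell against 10.3, 9.60, 9.69 and 8.66 (1.52, adjusted p = 4.81e-05, limma), and Ctsb at 23.0, 37.6, 24.1 and 15.9 against 15.7, 12.7, 13.6 and 12.5 (0.82, adjusted p = 0.0198). Ctsb was not called in 3 of 10 alternatives, without library 4 (adjusted p = 0.109, limma), with no library block (0.118) and without the trend (0.253). Both were higher in all 4 libraries, a split not counted over all genes, whereas both fell in the Ctsk-high cells. Of the Ctsk-low cells 50.9% were in the Arg1 and Pf4 cluster, which held 17.3% of all macrophage-like and monocyte-like cells, and the part of this difference in composition was not tested.

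Acp5, Ocstamp and Tnfrsf11a occurred together in pairs more often than their single shares gave, and less so within the macrophage-like and monocyte-like cells. Among the 10818 tumor cells under 10 Ctsk counts, Ocstamp and Tnfrsf11a were found together in 368 cells where 137 were expected (2.69 times), Acp5 and Ocstamp in 490 against 224 (2.19) and Acp5 and Tnfrsf11a in 547 against 261 (2.10). Within the macrophage-like and monocyte-like cells the ratios were 1.41, 1.28 and 1.28. The first lay at 1.5, 1.48, 1.14 and 1.5 in libraries 2 to 5. Ctsk and Dcstamp went the other way among the 10818 cells, meeting in 1 cell where 1.92 were expected. Other pairs are not given, so nothing is read for the members as a whole. Since Ctsk-high cells have Ctsk by definition, members per cell were counted over the other 6. At least 4 of these were found in 135 tumor cells, 59 of them Ctsk-high, at least 5 in 52 cells, 48 of them Ctsk-high, and all 6 in 12 cells, each of them Ctsk-high.

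In the cultures, 40 cells reached 10 Ctsk counts, 3 and 8 of them B-MF and 10 and 19 Mo-MF. Their highest Ctsk was 55 counts. Acp5 was positive in 0 of 3 and 4 of 8 of the B-MF cells (13.9% and 12.1% of the cells without Ctsk in the same libraries) and in 9 of 10 and 8 of 19 of the Mo-MF cells (40.7% and 39.0%). The shares thus ran from below to above those of cells without Ctsk. Nfatc1 was positive in 1, 2, 2 and 8 of the cells of these 4 libraries, Tnfrsf11a in 0, 5, 4 and 9, and Dcstamp in none. They held 22.7% of the Ctsk but 0.544% of the Acp5 counts of the cultures. A cluster of 21 fibroblast-like cells, 20 of them from B-MF libraries, was Ctsk-positive in 12 cells (57.1%) and Acp5-positive in 0 of 21 (exact 95% interval, 0% to 16.1%).

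Among the genes whose level followed Ctsk most closely in the tumors were Bdh2 (Pearson r = 0.98), Slc9b2 (0.97), Mt3 (0.95) and Atp6v0d2 (0.95), over 56 means of 1 cluster in 1 library on the log2(mean + 0.1) scale. Means of fewer than 20 cells were left out. The osteoclast-like cluster thus entered through libraries 2 and 4 alone, with 29 and 23 cells, and the fibroblast-like cluster not at all. These points also share libraries, so r is a description only. Among the members, r with Ctsk was 0.88 for Dcstamp, 0.77 for Acp5, 0.75 for Nfatc1, 0.64 for Ocstamp, 0.52 for Itgb3 and 0.48 for Tnfrsf11a. Acp5 was followed instead by Slc38a6 (0.91), Slc37a2 (0.90), Arhgap10 (0.90), Slc6a8 (0.89) and Mfsd12 (0.89). In the cultures, over 39 such means, Ctsk was followed by Gprc5b (0.83), Mettl7a1 (0.81), F7 (0.78), Ldhb (0.77) and Rassf8 (0.77), and Acp5 by Plpp3 (0.90), Cd22 (0.88), Ldhb (0.88), Slamf8 (0.86) and Mfge8 (0.86).

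Chromatin of the CSF1R+ and CSF1R- cells had peaks within 1000 bases of the start of the genes for RANK, NFATc1 and the beta3 integrin. It had none that near the GENCODE starts of the other 5 genes. In BM the Nfatc1 peak lay inside the gene, more than 500 bases from the start. Within 1000 bases of the gene start by GENCODE on GRCm38, Itgb3 and Nfatc1 had a peak in all 6 BM and all 6 spleen libraries and Tnfrsf11a in 6 and 5. Acp5, Ctsk, Dcstamp, Ocstamp and Calcr had none in any of the 12 libraries. The genes lie at chr9:22126727-22135711 (Acp5, minus strand), chr3:95499256-95509362 (Ctsk, plus), chr15:39745930-39760938 (Dcstamp, plus), chr2:165393760-165400405 (Ocstamp, minus), chr6:3685680-3764714 (Calcr, minus), chr11:104608000-104670476 (Itgb3, plus) and chr1:105780718-105847981 (Tnfrsf11a, plus). Over 21951 protein-coding genes, 47.9% had a peak in all 12 libraries and 38.9% in none. Fold enrichment over background at these peaks was 13.6 to 20.3 at Itgb3, 5.42 to 13.7 at Tnfrsf11a and 2.31 to 5.40 at Nfatc1. The difference between BM and spleen was not called for any member (5.38% of 13407 genes were), with p = 1 for each of the 3 genes with peaks (two-sided Fisher's exact test).

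Nfatc1 is a case where the window decides. With 500 bases on either side of the start it had a peak in 0 of 6 BM and 6 of 6 spleen libraries (two-sided Fisher's exact test, adjusted p = 0.0432). All libraries shared a peak with its summit 605 to 647 bases inside the gene. Spleen libraries had in addition a peak at the start itself, with summits from 47 bases before to 145 bases after it, which in 1 library ran together with the inner peak. Further inside the gene 4 intronic regions had peaks in 0 BM and 6 spleen libraries, 26796, 52069, 58828 and 103299 bases from the start, a pattern seen at 2.01% of 101333 merged regions.

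Genes with no peak at the start had open chromatin nearby in some cases. Acp5 had a region in all 12 libraries at chr9:22131095-22132160 (fold enrichment 8.32 to 12.3), 4327 bases inside the gene, overlapping an untranslated exon and the internal start window printed above. Beyond its end lay 2 more regions with peaks in all 12, chr9:22122106-22122417 (6.99 to 10.2) and chr9:22123030-22123814 (8.41 to 12.2). Peaks in all 12 libraries were found at 30.1% of merged regions. Ctsk had one 4737 bases before its start, at chr3:95494378-95494650, in 6 BM and 4 spleen libraries (4.80 to 11.4) and another beyond its end at chr3:95511721-95512142 in all 12 (5.97 to 13.7). Dcstamp and Calcr had no peak inside the gene or within 5000 bases of it, and Ocstamp 1, in a single BM CSF1R+ library. Tnfrsf11a had an intronic region 6457 bases inside the gene, at chr1:105786988-105787356, in 6 BM and 0 spleen libraries (5.42 to 14.9), a split that 11.2% of merged regions showed.

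CSF1R+ and CSF1R- cells were compared by description only, and no test was run. The clearest split was an intronic region of Tnfrsf11a at chr1:105802997-105803264, with a peak in 3 CSF1R+ and 0 CSF1R- libraries of BM but in 1 and 2 of spleen. It was picked among the regions of all members after its values were seen, and the share of all merged regions with such a split was not counted.

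**Figure D5:**
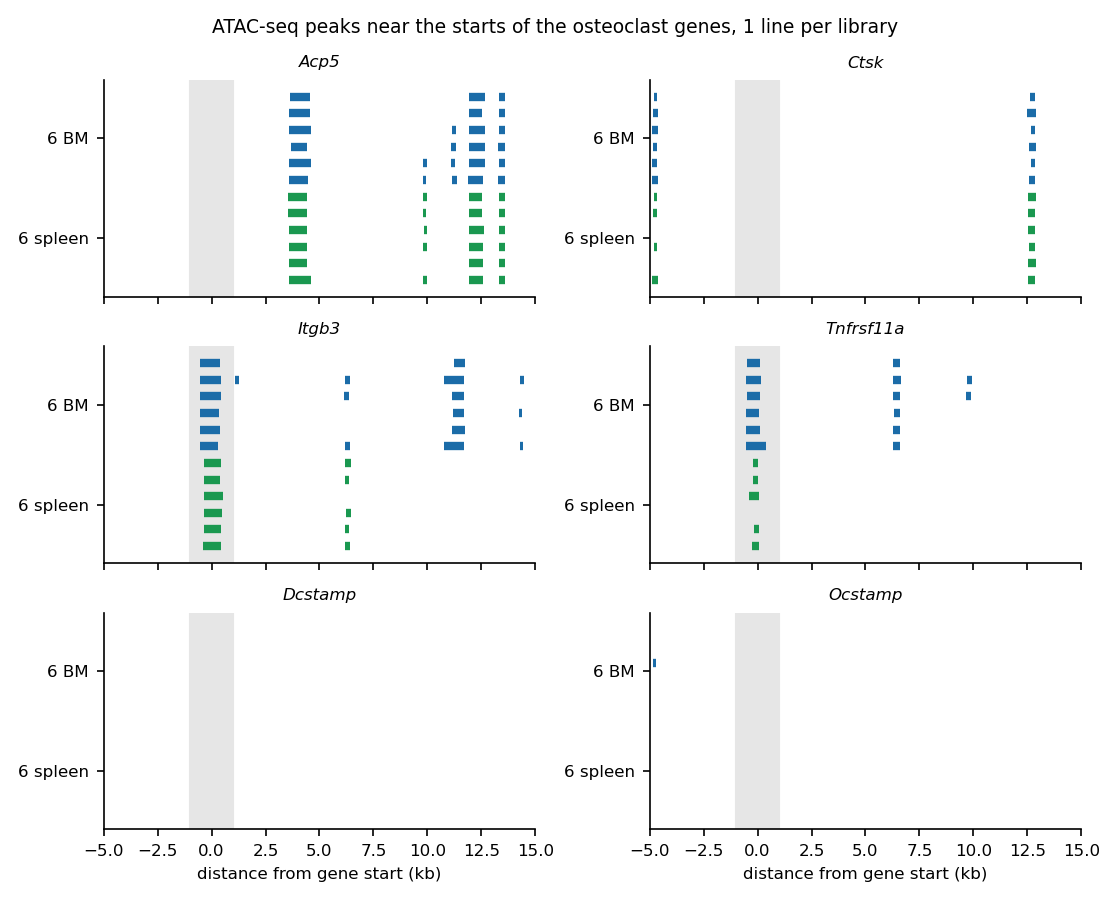
Peaks (bars) of 6 BM (blue) and 6 spleen (green) ATAC-seq libraries, 1 line per library, from 5 kb before to 15 kb after the gene start (x axis, distance in kb along the gene's strand) for Acp5, Ctsk, Itgb3, Tnfrsf11a, Dcstamp and Ocstamp, with the window of 1 kb on either side of the start in grey. Itgb3 has peaks in the window in all 12 libraries and Tnfrsf11a in 11, and the Acp5 peak of all 12 libraries lies about 4 kb inside the gene.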

How the data were processed

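For single-cell RNA, the authors aligned and counted reads with Cell Ranger and normalized them with SCTransform in Seurat, keeping cells above a minimum number of detected genes. The deposited values are the natural log of 1 plus a corrected count, and all 77097456 and 21074130 positive values of the culture and tumor tables gave whole corrected counts within 1e-06 when converted back. For ATAC-seq, the authors trimmed reads with cutadapt, aligned them with BWA to mm10 and called peaks per library with MACS2. The deposited peak lists give each peak's position, signal as fold enrichment over background, −log10 p-value and −log10 q-value, and a score, with 65832 to 76530 peaks in BM and 43407 to 50392 in spleen. They hold no read counts, so depth is unknown. The doublet treatment was not given in the sources used here, and no doublet caller was run.

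The 8 genes, the pathway list and the marker lists were chosen with earlier results of these data known. All members are named in each comparison, with the 4 pathway genes changed most in each direction and the 5 genes most like Ctsk and Acp5, except genes that are not reported here. Cells were clustered per table on 2000 variable genes without the members, with 30 principal components, 20 neighbors and Leiden resolution 0.5 (igraph 0.11.9, leidenalg 0.10.2, scikit-learn 1.9.0, Python 3.11.15). A cluster was named when at least 3 markers and 50% of a list lay above the average of all clusters and no other list had more markers among its 10 leading genes. Library means of corrected counts, as log2(mean + 0.1) with genes under a mean of 0.1 left out, were tested with limma 3.58.1 (R 4.3.3) with a variance trend and Benjamini-Hochberg adjustment, called at 0.05. B-MF and Mo-MF were fitted without and TAM cell sets with a library block, in libraries with at least 10 cells per set. Peaks overlapping 1000 bases on either side of a GENCODE gene start (GRCm38) were tested with Fisher's exact test. Shares carry exact Clopper-Pearson 95% intervals, a count of 0 allows up to 3 counts, and thinning drew 5000 corrected counts per cell. Replicates were checked for duplicates: chi-square per gene was 8.76 to 78.6, so none was counted once. The scripts were tested on simulated data. TAM library numbers in the columns could not be tied to single label numbers, so they name libraries only. Sequences are RefSeq's, GRCm38.p6. The promoter table had entries for Acp5, Ctsk, Tnfrsf11a and Calcr.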

Additional observations from a re-analysis of the deposited data

Results flagged for a closer look

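Of 23 shares and mean counts of members in the 4 TAM libraries, 2 had a library standing apart from the other 3, both for Itgb3. TAM library 4 had Itgb3 in 1.80% of cells and a mean of 0.0306 corrected counts per cell. Both measures come from the same counts, and chance flags about 1 in 20 groups. B-like and T/NK-like cells, which held 42.1% and 16.8% of the Itgb3 counts of all tumors, made up 75 and 26 of the 2387 cells of this library. Their part in the value was not tested.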

How the results depend on the processing

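Between B-MF and Mo-MF the count of called genes, 3853, ranged from 2185 (without Mo-MF replicate 1) to 5600 when 1 library was left out. With the replicate block, which pairs libraries of the same number, 4162 genes were called (2468 higher, 1694 lower) and no member changed sides. The deviations of same-numbered libraries correlated at 0.126 over 2 pairs, too few to show that the numbers pair them. The Mmp9 and Tnfrsf11a calls that were lost are given with their values in the report. Nfatc1 was called without B-MF replicate 1 (−0.20, adjusted p = 0.000923, limma). For Ctsk-high cells the count of 3281 fell to 1849 without TAM library 2 (1849 to 3087 over libraries left out), was 2125 over genes that reached the filter in both sets (fewer genes), 3402 with library 3 and 3640 against cells without Ctsk of all clusters. For Ctsk-low cells the count of 97 became 160 with a filter of 0.01, 17 with no library block and 11 without the trend, and 41 to 76 with 1 library left out (41 without library 4 and 45 without library 5). Without library 3 the Acp5 difference turned to −0.36 (adjusted p = 0.612, 0.52 without library 5) and that of Nfatc1 to 0.046 (adjusted p = 0.966, −0.70 without library 5). The count of gene starts called between BM and spleen, 721, ranged from 639 to 823. Counts over genes that reached the filter in both groups were added after seeing the data. For TAM the fits with the library block are the paired analysis. For ATAC-seq no paired test was run.

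Shares depend on what counts as positive and on depth. At 2 or more counts, mean shares in B-MF were Acp5 3.04% (from 13.2%), Ctsk 0.956% (from 6.2%), Dcstamp 0.0848% (from 0.369%), Itgb3 0.208% (from 0.747%), Nfatc1 5.66% (from 27.0%) and Tnfrsf11a 15.2% (from 42.3%). At 2 or more counts, mean shares in Mo-MF were Acp5 26.6% (from 43.5%), Ctsk 4.55% (from 17.6%), Itgb3 2.56% (from 4.83%), Nfatc1 6.84% (from 29.9%) and Tnfrsf11a 11.2% (from 36.2%). At 2 or more counts, mean shares in TAM were Acp5 10.3% (from 19.8%), Ctsk 1.21% (from 2.26%), Dcstamp 0.777% (from 1.49%), Itgb3 0.432% (from 1.26%), Nfatc1 4.84% (from 15.9%), Ocstamp 4.12% (from 10.7%) and Tnfrsf11a 2.61% (from 12.4%). After thinning to 5000 corrected counts, mean shares in B-MF were Acp5 4.20%, Ctsk 1.91%, Dcstamp 0.132%, Itgb3 0.251%, Nfatc1 8.40% and Tnfrsf11a 14.8%. After thinning to 5000 corrected counts, mean shares in Mo-MF were Acp5 20.9%, Ctsk 5.85%, Itgb3 2.15%, Nfatc1 9.33% and Tnfrsf11a 12%. After thinning to 5000 corrected counts, mean shares in TAM were Nfatc1 11% and Tnfrsf11a 8.03%. TAM shares in this section are over all cells, neutrophil-like ones included. Thinning can only lower a share, so the thinned values serve to set cultures and tumors side by side and show no more.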
